A study of Mus musculus with 10 samples.

Results

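The genes described here encode the subunits, activators, inhibitor and assembly factors of the proteasome and the E2 ubiquitin-conjugating enzymes. They were chosen by name, as every array feature annotated to exactly 1 gene symbol beginning with Psma to Psmg and a digit, or with Ube2 and a letter. This gave 69 genes, 42 of the Psm type and 27 of the Ube2 type, of 14860 genes with such a feature, and each of the 69 had 1 feature. The choice used names and no measured value. It also took in Psmc3ip, a meiotic recombination factor, and Psme3ip1, a binding partner of an activator, which are counted as matching by name. Psmb5, Psma8, Ube2s and Ube2m were not analysed here.

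The samples were 10 mouse thymi from C57BL6/129 hybrids aged 4-5 weeks, in 4 genotype groups. These were p53(246/246)mdm2(-/-) with 2 samples, p53(-/-)mdm2(-/-) with 2 samples, p53(246/246)mdm2(+/+) with 3 samples and p53(-/-)mdm2(+/+) with 3 samples. They are called mutant p53 mdm2-null, p53-null mdm2-null, mutant p53 mdm2 wild type and p53-null mdm2 wild type below. No sample had wild-type p53, so nothing here describes the response of these genes to normal p53, and both mutant groups carried the same allele on both copies. The labels do not say that replicates were separate animals, so p-values measure the spread between these samples, which may be technical. All values are deposited log2 signals, where a difference of 1 is a doubling, and signals of different features are not on a common scale.

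Proteins marked with ubiquitin are degraded by the proteasome, a barrel-shaped protease core with a regulatory cap at its ends. Ubiquitin is activated by an E1 enzyme, carried by an E2 enzyme and placed on its target by an E3 ligase. Mdm2 is such a ligase, and p53 is its best known target, passed on to the proteasome after ubiquitination with E2 enzymes of the D family. In the thymus, cortical epithelial cells use a special core subunit, Psmb11, to make the peptides on which CD8 T cells are selected, and immune cells use the interferon-inducible subunits Psmb8, Psmb9 and Psmb10.

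The targeted gene followed its labels. Mdm2 signals were 8.28 to 8.43 in the 4 mdm2-null thymi and 9.47 to 9.62 in the 6 mdm2 wild-type thymi. The mdm2-null signals still lay above those samples' medians over all features, 6.1 to 6.2, and do not show that the transcript was absent. Trp53 was not analysed here. Thymocyte genes were bright in every sample, with Cd8a at 12.44 to 12.80 in mdm2-null thymi and 12.74 to 12.80 in mdm2 wild-type thymi. The log2 of the summed signal of 10 thymocyte genes was 14.52 to 14.8 in mdm2-null thymi and 14.75 to 14.82 in mdm2 wild-type thymi. All 10 had a negative difference, mdm2-null minus mdm2 wild type, with a median log2 change of -0.191 against -0.0182 over all features, and 0 of 10 were called. Liver genes were also present in the mdm2-null thymi: the log2 of the summed signal of 11 measured liver genes was 10.63 to 13.2 there and 7.48 to 7.91 in mdm2 wild-type thymi, and 11 of 11 were called higher. All 8 measured adipocyte genes had a positive difference, with a median log2 change of 1.26. Of the 8, 3 were called higher, against 1.96% of all features. The part of the thymocyte, liver or adipocyte genes in the results below was not tested. One library stood apart: in p53-null mdm2 wild-type replicate 1 the mean of the Y-linked genes Kdm5d and Eif2s3y was 3.59, against 8.49 to 9.35 in the other samples, and sex is not in the labels. Array names begin with one prefix in the mutant p53 mdm2-null group, another in the p53-null mdm2-null group and yet another in both mdm2 wild-type groups. The mdm2 comparisons therefore cannot be told apart from the array-name set, and only the p53 comparison with wild-type mdm2 lies within one set.

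Across mdm2 genotypes, 2 of the 69 genes passed the test, both E2 enzymes and both higher without mdm2. Ube2d2a, a D family E2 of the kind that works with Mdm2, rose 1.45-fold, and Ube2q2, a less studied E2, rose 1.37-fold. No proteasome subunit passed. A gene is called here when its adjusted p is under 0.05, from limma over all 23332 features with Benjamini-Hochberg adjustment, in a model with p53 and mdm2 genotype as additive terms. Of all features 3.87% were called, so 2 of 69 genes, or 2.9%, was near the background. By direction, 2 of 69 genes and 1.96% of all features were called higher, and 0 of 69 genes and 1.9% of all features were called lower. At an unadjusted p under 0.05 the share was 24.6% of the 69 genes and 21.0% of all features.

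Ube2d2a had signals of 11.17 and 11.32 in mutant p53 mdm2-null thymi and 10.87 and 11.03 in p53-null mdm2-null thymi. It had 10.42, 10.79 and 10.47 in mutant p53 mdm2 wild-type thymi and 10.70, 10.41 and 10.58 in p53-null mdm2 wild-type thymi. Every mdm2-null thymus lay above every mdm2 wild-type thymus. The log2 change was 0.54 (SE 0.112, 95% interval 0.29 to 0.79), with a limma adjusted p of 0.0359. The other measured D family genes did not pass: the log2 change was 0.02 for Ube2d1 (adjusted p = 0.955), 0.02 for Ube2d3 (adjusted p = 0.946) and -0.08 for Ube2d2b (adjusted p = 0.834). Ube2d2b and Ube2dnl1, a related gene, were dim in all 10 samples, below each sample's lower quartile.

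Ube2q2 had 10.47 and 10.71 in mutant p53 mdm2-null thymi and 10.36 and 10.62 in p53-null mdm2-null thymi. It had 10.07, 10.18 and 10.07 in mutant p53 mdm2 wild-type thymi and 9.89, 10.18 and 10.12 in p53-null mdm2 wild-type thymi. These groups did not overlap either. The log2 change was 0.46 (SE 0.0954, 95% interval 0.24 to 0.67), with a limma adjusted p of 0.0365. Its relative Ube2q1 had a log2 change of 0.03 (adjusted p = 0.904).

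Both calls were near the threshold and were lost when any one of several libraries was left out. Ube2d2a stayed under the threshold without p53-null mdm2-null replicate 1 (adjusted p = 0.0374), p53-null mdm2 wild-type replicate 1 (0.0414) and mutant p53 mdm2 wild-type replicate 2 (0.0452). Its adjusted p was 0.0749 and 0.106 without mutant p53 mdm2-null replicates 1 and 2, 0.0698 without p53-null mdm2-null replicate 2, 0.0804 and 0.0796 without mutant p53 mdm2 wild-type replicates 1 and 3, and 0.0697 and 0.0609 without p53-null mdm2 wild-type replicates 2 and 3. Ube2q2 stayed under it only without p53-null mdm2-null replicate 1 (0.0374). Its adjusted p was 0.0554 and 0.108 without mutant p53 mdm2-null replicates 1 and 2, 0.078 without p53-null mdm2-null replicate 2, 0.0852, 0.0571 and 0.0823 without mutant p53 mdm2 wild-type replicates 1, 2 and 3, and 0.0543, 0.0566 and 0.0615 without p53-null mdm2 wild-type replicates 1, 2 and 3. The log2 change itself stayed between 0.47 and 0.60 for Ube2d2a and between 0.40 and 0.51 for Ube2q2.

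**Figure D1:**
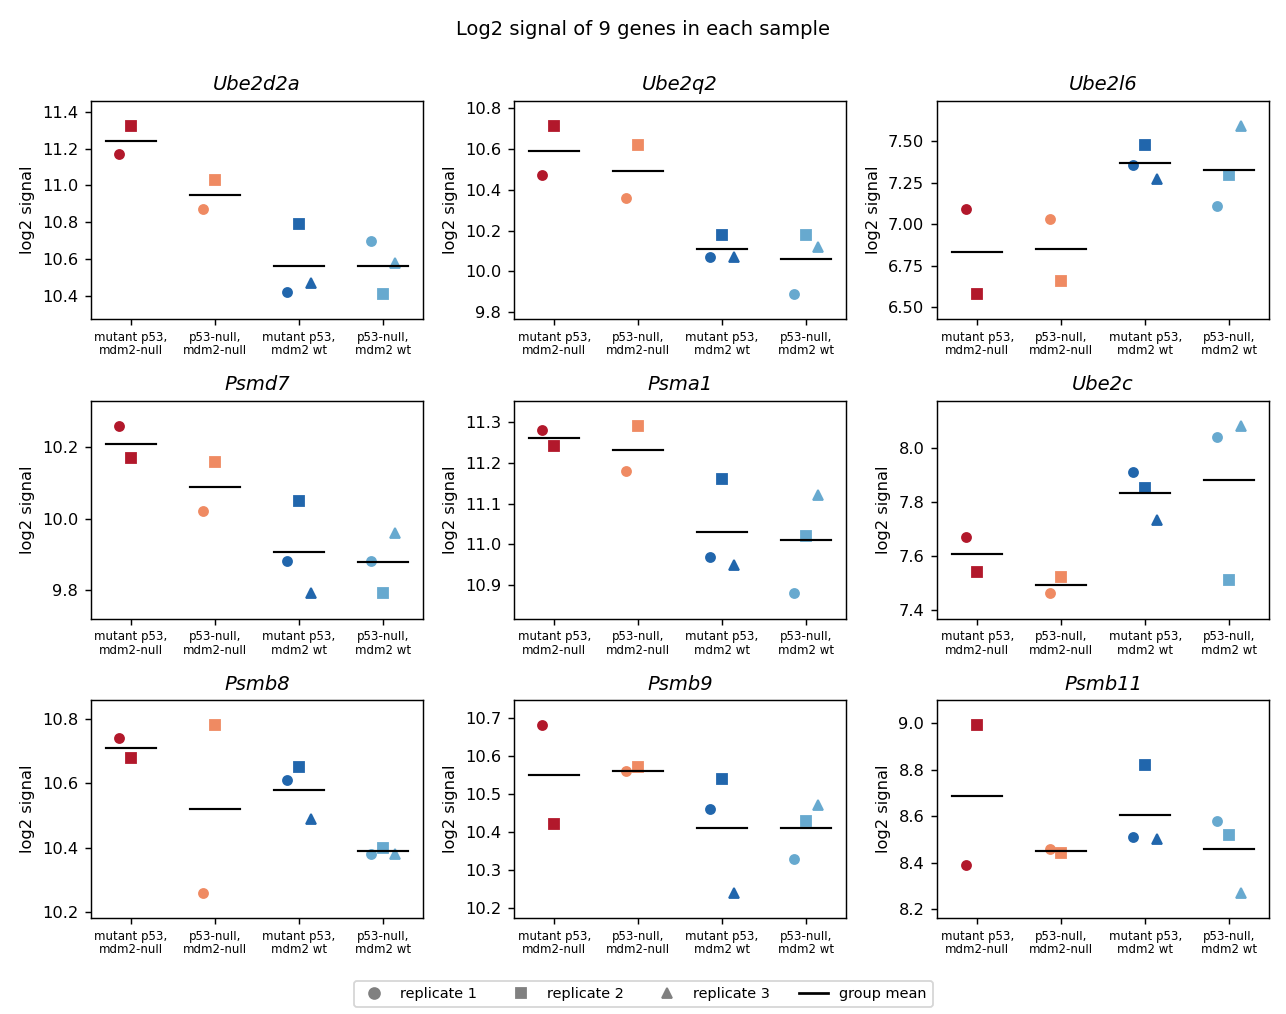
Log2 signal (vertical axis) of 9 genes in each of 10 thymi, by genotype group, with points for replicates and a bar for the group mean. The mdm2-null samples of Ube2d2a, 10.87 to 11.32, and of Ube2q2, 10.36 to 10.71, lie above all mdm2 wild-type samples, while those of Psmb8, Psmb9 and Psmb11 overlap.

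Sequences upstream of the genes were available from RefSeq (GRCm38.p6) for 57 of the 69 genes, in 68 windows of 250 bases before to 50 bases from the start on. The first of 2 windows of Ube2q2, which was called, and the windows of Psma1, the core subunit whose groups did not overlap, and of Ube2c, a cell cycle gene, are shown. Capitals mark TGACNNNGC in Ube2q2, CCAAT in Psma1, and CCAAT and TTTGAA in Ube2c, on either strand. They lie at chr9:55149119-55149418 on the plus strand, chr7:114276067-114276366 on the minus strand and chr2:164769679-164769978 on the plus strand. The second window of Ube2q2, at chr9:55149833-55150132 on the plus strand, held no match to the 4 motifs searched and is not shown.
Ube2q2: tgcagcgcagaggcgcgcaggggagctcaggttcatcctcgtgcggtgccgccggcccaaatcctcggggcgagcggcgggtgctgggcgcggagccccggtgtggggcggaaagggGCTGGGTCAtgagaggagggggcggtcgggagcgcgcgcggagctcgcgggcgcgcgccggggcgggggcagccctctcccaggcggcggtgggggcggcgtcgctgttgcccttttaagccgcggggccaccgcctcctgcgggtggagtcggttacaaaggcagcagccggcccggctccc
Psma1: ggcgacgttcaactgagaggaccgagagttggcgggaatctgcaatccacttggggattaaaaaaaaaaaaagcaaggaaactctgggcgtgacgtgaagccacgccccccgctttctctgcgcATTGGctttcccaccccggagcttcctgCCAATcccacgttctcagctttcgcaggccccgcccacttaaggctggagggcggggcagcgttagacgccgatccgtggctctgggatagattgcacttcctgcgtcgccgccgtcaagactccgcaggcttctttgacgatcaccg
Ube2c: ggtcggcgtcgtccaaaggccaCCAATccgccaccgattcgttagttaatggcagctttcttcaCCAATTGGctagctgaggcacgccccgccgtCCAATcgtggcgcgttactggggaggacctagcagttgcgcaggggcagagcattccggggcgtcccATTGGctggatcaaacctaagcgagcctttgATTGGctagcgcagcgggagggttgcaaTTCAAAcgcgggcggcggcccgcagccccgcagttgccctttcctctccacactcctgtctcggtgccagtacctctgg
TGACNNNGC, the letters of an antioxidant response element bound by Nfe2l1 and Nfe2l2, was in 13.2% of Psm windows, 13.3% of Ube2 windows and 12.4% of all 32851 windows. CCAAT, bound by NF-Y, was in 39.5% of Psm windows, 23.3% of Ube2 windows and 37.4% of all, with 6 matches in the Ube2c window. TTTGAA, the letters of a cell cycle homology element, was in 7.89% of Psm windows, 13.3% of Ube2 windows and 17.9% of all. An interferon-type pattern, GAAA repeated after any 2 letters, was in 7.89% of Psm windows, 3.33% of Ube2 windows and 3.44% of all. A match is a description of letters and not of binding.

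The protease core showed small differences with mdm2 genotype and none was called. The alpha ring, which gates entry, had log2 changes of -0.13 to 0.23 in 5 measured genes. Psma1 had 11.28, 11.24, 11.18 and 11.29 in the 4 mdm2-null thymi, and a lowest, median and highest signal of 10.88, 10.99 and 11.16 in the 6 mdm2 wild-type thymi. Its groups did not overlap, but its log2 change of 0.23 (SE 0.0814) had a limma adjusted p of 0.136. In the beta ring, which holds the cutting sites, Psmb1, Psmb2, Psmb4, Psmb6 and Psmb7 had log2 changes of 0.01 to 0.21. Psmb6 and Psmb7, catalytic subunits of the constitutive core, had 0.06 (adjusted p = 0.809) and 0.18 (adjusted p = 0.301).

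The immune forms of the core did not pass either. Psmb10 had 9.81, 9.78, 9.76 and 9.88 in mdm2-null thymi and a lowest, median and highest signal of 9.44, 9.54 and 9.81 in mdm2 wild-type thymi, a log2 change of 0.22 (SE 0.0944, limma adjusted p = 0.225). Psmb8 had a log2 change of 0.13 (SE 0.102, adjusted p = 0.536) and Psmb9 one of 0.15 (SE 0.0888, adjusted p = 0.402). Psmb11, the thymoproteasome subunit, had 8.39, 8.99, 8.46 and 8.44 in mdm2-null thymi and 8.27, 8.52 and 8.82 as lowest, median and highest in mdm2 wild-type thymi. Its log2 change was 0.04 (95% interval -0.25 to 0.33), and the summed signal of 8 cortical epithelial genes was 13.86 to 13.96 in mdm2-null thymi and 13.87 to 14.16 in mdm2 wild-type thymi. In whole thymus, fewer cells of a type and less RNA per cell cannot be told apart.

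In the cap, the ATPase ring that unfolds substrates had log2 changes of -0.19 to 0.26. Psmc5 had 0.26 (limma adjusted p = 0.18) and Psmc6 -0.19 (adjusted p = 0.196), and Psmc6 was one of 3 genes whose mdm2-null samples all lay below the mdm2 wild-type ones. Psmd7 had 10.26, 10.17, 10.02 and 10.16 in mdm2-null thymi and a lowest, median and highest signal of 9.79, 9.88 and 10.05 in mdm2 wild-type thymi, with a log2 change of 0.26 (SE 0.083, adjusted p = 0.11). The highest mdm2 wild-type sample lay just above the lowest mdm2-null sample. Psmd14, the deubiquitinase that pairs with Psmd7, had 0.21 (adjusted p = 0.179), and Psmd4, a ubiquitin receptor, had 0.13 (adjusted p = 0.642).

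Activators and the inhibitor had log2 changes of -0.19 to 0.04. Psme4, the large nuclear activator, had -0.19 (limma adjusted p = 0.224), Psmf1, the inhibitor, -0.13 (adjusted p = 0.473), Psme1 -0.03 (adjusted p = 0.914) and Psme3 0.04 (adjusted p = 0.876). Among assembly chaperones, Psmg2 had 0.26 (adjusted p = 0.175) and Psmg3 0.25 (adjusted p = 0.547). Psmg3 had the widest range of the 69 genes over the 10 samples, 1.03 on the log2 scale, followed by Ube2l6 and Ube2t with 1.01 each. Ranges of 0.77 to 0.91 came next, for Ube2d2a, Ube2a, Psma3, Ube2q2, Psmc1, Ube2e1 and Ube2f. The 2 genes matching by name had -0.29 for Psme3ip1 (adjusted p = 0.104) and 0.20 for Psmc3ip (adjusted p = 0.318).

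The largest negative difference among the 69 genes was that of Ube2l6, the interferon-inducible E2 for the ubiquitin-like protein Isg15. It had 7.09, 6.58, 7.03 and 6.66 in mdm2-null thymi and a lowest, median and highest signal of 7.11, 7.33 and 7.59 in mdm2 wild-type thymi, with no overlap. The log2 change was -0.51 (SE 0.135, 95% interval -0.81 to -0.21), with a limma adjusted p of 0.0671. The summed signal of 9 interferon-response genes was 10.97 to 11.4 in mdm2-null thymi and 11.29 to 11.52 in mdm2 wild-type thymi, 8 of 9 had a negative difference with a median log2 change of -0.326, 0 of 9 were called, and the part of interferon response in the Ube2l6 value was not tested. Ube2w, which adds ubiquitin to the start of proteins, had -0.33 (adjusted p = 0.125), also without overlap. Higher and lower non-overlapping genes were 3 each, or 4.35% of the 69, against 3.93% and 4.52% of all features.

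The remaining E2 enzymes did not pass. Ube2c, which works with the anaphase-promoting complex in mitosis, had 7.67, 7.54, 7.46 and 7.52 in mdm2-null thymi and a lowest, median and highest signal of 7.51, 7.88 and 8.08 in mdm2 wild-type thymi. Its log2 change was -0.31 (SE 0.12, limma adjusted p = 0.179), and of 17 other G2 and M phase genes 3 were called lower, against 1.9% of all features. Of the 17, 14 had a negative difference, with a median log2 change of -0.119, and the part of cell division in the Ube2c value was not tested. Ube2j1, an E2 linked to protein disposal from the endoplasmic reticulum, had -0.30 (adjusted p = 0.148), and Ube2g1 had -0.29 (adjusted p = 0.16). Ube2n, which builds non-degradative chains with Ube2v2, had 0.28 (adjusted p = 0.211), and Ube2v2 had -0.17 (adjusted p = 0.532). The DNA repair E2s Ube2a, Ube2b and Ube2t had 0.23 (adjusted p = 0.468), 0.08 (adjusted p = 0.779) and -0.24 (adjusted p = 0.477), and Ube2l3 had 0.19 (adjusted p = 0.365).

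**Figure D2:**
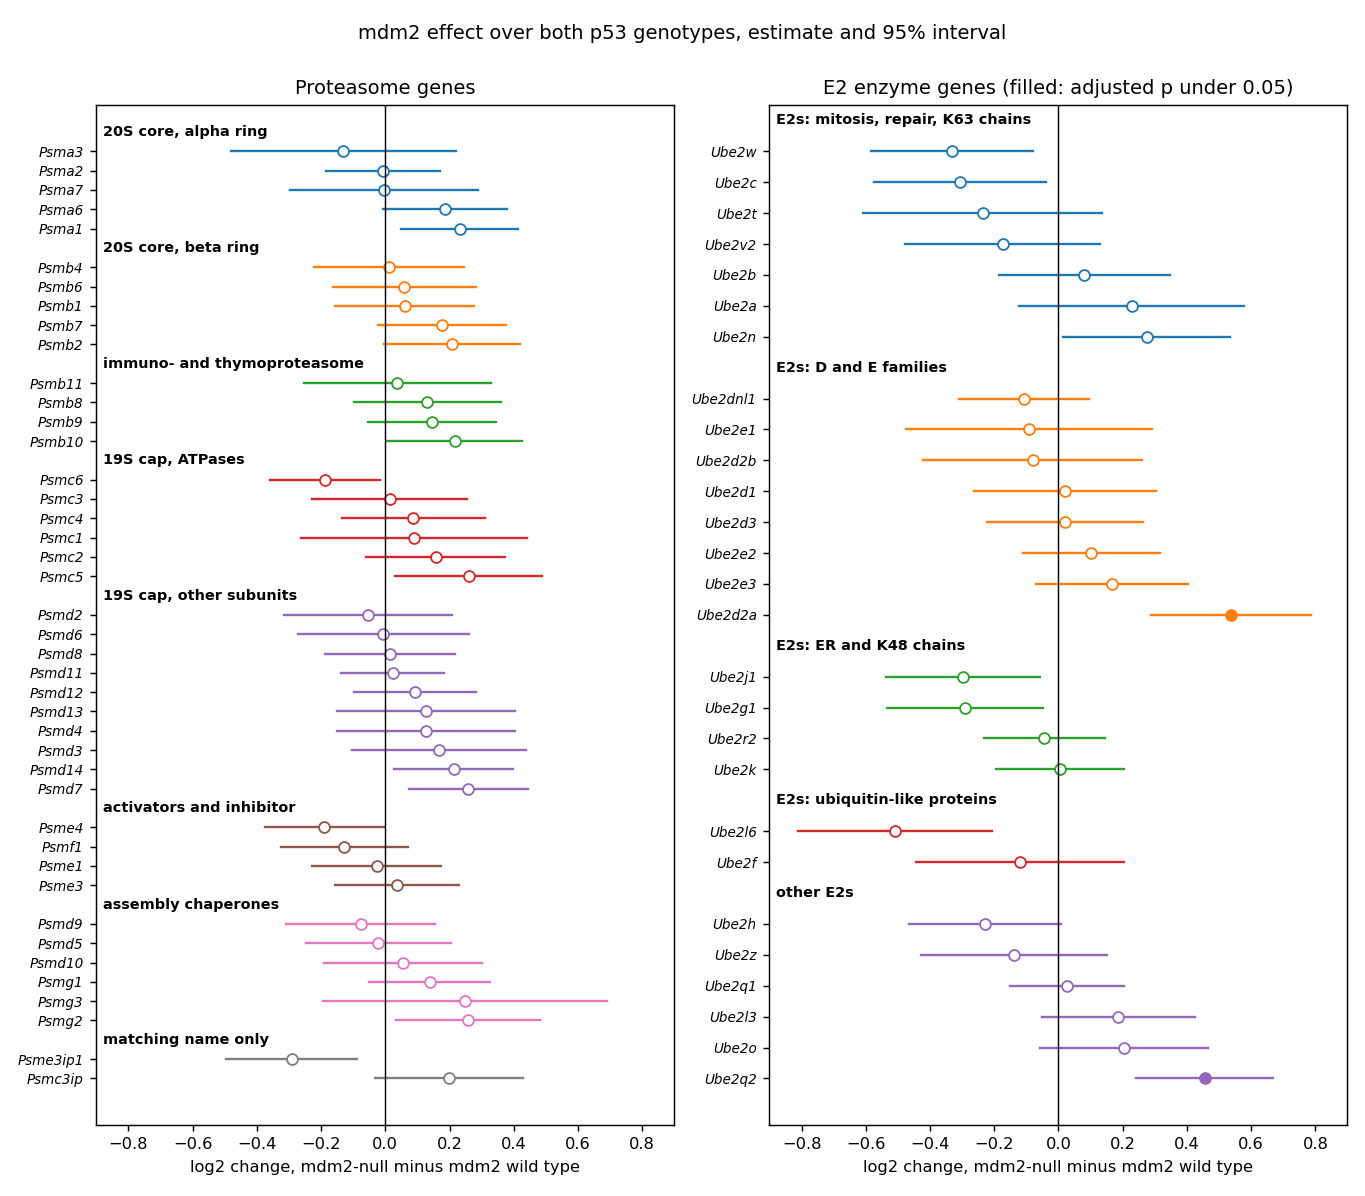
Log2 change of each of the 69 genes, mdm2-null minus mdm2 wild type over both p53 genotypes (horizontal axis), by role, with the limma estimate as a point and its 95% interval as a line. Filled points mark the 2 called genes, Ube2d2a and Ube2q2, and most other intervals include 0.

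Of the 42 Psm genes 30 had a positive difference and their median was 0.0736, while 13 of 27 Ube2 genes were positive with a median of -0.0435. Over all features 46.2% were positive and the median was -0.0182. The median of all 69 genes was 0.0361, and -0.00193 to 0.0867 when one library was left out. Many of the genes were high or low in the same samples, as described below, so these counts do not rest on separate observations.

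Of 24 measured pathway genes outside the families, 1 was called, against 3.87% of all features. Nfe2l2, a stress-response factor that also drives proteasome genes, had 8.61 and 8.10 in mutant p53 mdm2-null thymi, 8.16 and 8.27 in p53-null mdm2-null thymi, 8.94, 8.79 and 8.60 in mutant p53 mdm2 wild-type thymi, and 8.85, 8.72 and 9.02 in p53-null mdm2 wild-type thymi. It fell by 0.54 on the log2 scale (SE 0.124, limma adjusted p = 0.0467), its lowest mdm2 wild-type sample lay just below its highest mdm2-null sample, and the call held only without mutant p53 mdm2-null replicate 1 (0.0349) when one library was left out, with adjusted p of 0.0688 to 0.13 without any one of the others. With each array centred on its median the adjusted p was 0.0672. Nfe2l1, the main activator of proteasome genes when the proteasome is inhibited, had 0.24 (adjusted p = 0.207). Uba6, the alternative E1 enzyme, had -0.43 (adjusted p = 0.05, not under the threshold), and Sem1, a cap subunit, had 0.54 (adjusted p = 0.064). For Sem1 the log2 change was 0.81 in mutant p53 thymi (limma adjusted p = 0.0929) and 0.27 in p53-null thymi (adjusted p = 0.621). The difference between these 2 effects was 0.55 (limma adjusted p = 0.995).

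Within each p53 genotype the mdm2 comparison called none of the 69 genes, against 0.0129% of all features in mutant p53 thymi and 0.0214% in p53-null thymi. At an unadjusted p under 0.05 there were 11 genes in mutant p53 thymi (15.9%, against 16.4% of all features) and 3 in p53-null thymi (4.35%, against 10.7%). Ube2d2a had a log2 change of 0.69 in mutant p53 thymi (SE 0.152, limma adjusted p = 0.111) and 0.39 in p53-null thymi (SE 0.152, adjusted p = 0.409). Ube2q2 had 0.48 (adjusted p = 0.16) and 0.43 (adjusted p = 0.35), and Ube2l6 had -0.54 (adjusted p = 0.234) and -0.48 (adjusted p = 0.444). The other genes of smallest p in mutant p53 thymi were Ube2h (-0.40), Ube2n (0.44), Ube2w (-0.45), Ube2j1 (-0.41), Psmd7 (0.31), Ube2z (-0.38) and Psme4 (-0.28), with adjusted p of 0.197 to 0.277. Those in p53-null thymi were Psme3ip1 (-0.31), Ube2c (-0.39), Psma1 (0.23), Psmb10 (0.25), Psmc6 (-0.20), Psmd7 (0.21) and Psmc5 (0.26), with adjusted p of 0.467 to 0.592. In mutant p53 thymi 13 genes were higher and 10 lower without overlap, against 16.4% and 19.7% of all features. In p53-null thymi 11 were higher and 4 lower without overlap, against 12.3% and 13.8%. Positive differences numbered 37 of 69 in mutant p53 thymi, against 47.4% of all features, and 46 of 69 in p53-null thymi, against 47.1%. These comparisons share no sample, but in both the mdm2-null and mdm2 wild-type arrays differ in name prefix. Of the 69 genes 52, or 75.4%, had the same sign in both, against 63.5% of all features. Many of the genes were high or low in the same samples, as described below, so they are not separate observations. The difference between the mdm2 effects was tested directly: 0 of 69 genes and 0.0% of all features were called, and 0 genes and 4.27% of all features had an unadjusted p under 0.05. It was positive for 28 of 69 genes, against 48.8% of all features. It was -0.49 for Ube2z, the E2 fed by Uba6 (95% interval -0.99 to 0.01), and 0.30 for Ube2d2a (95% interval -0.19 to 0.78). Next by p were Ube2h (-0.35), Ube2n (0.33), Psmd2 (-0.32), Psmd4 (-0.32), Psme1 (-0.23), Psme4 (-0.18), Ube2j1 (-0.23) and Psmd9 (-0.22), each with an adjusted p of 0.995.

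Between p53 genotypes, mutant p53 against p53-null, none of the 69 genes was called by limma over both mdm2 genotypes, and neither was any other feature (0.0% of all). At an unadjusted p under 0.05 there was 1 of the 69 genes, against 2.54% of all features. It was Ube2e2, an E family E2, with 7.17 and 6.95 in mutant p53 mdm2-null thymi, 6.72 and 6.69 in p53-null mdm2-null thymi, 6.87, 6.90 and 6.87 in mutant p53 mdm2 wild-type thymi, and 6.44, 6.77 and 6.82 in p53-null mdm2 wild-type thymi. All mutant p53 samples lay above all p53-null samples, as in 0.111% of all features, but the log2 change was 0.26 (SE 0.0939) with a limma adjusted p of 1. Without p53-null mdm2 wild-type replicate 1, which held the lowest value, it was 0.21. The next by p, each with an adjusted p of 1, were Psmb8 (0.19), Ube2l3 (0.18), Psmc3ip (0.16), Ube2f (0.22), Psmb11 (0.19), Psmg1 (0.11), Psma3 (0.18), Ube2k (0.10) and Ube2d2a (0.11).

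Of the 69 genes 54 were higher with mutant p53, against 49.0% of all features, with a median of 0.0511, or 0.0219 to 0.0917 when one library was left out. With wild-type mdm2, within one array-name set, 58 were positive (median 0.0631), against 50.7% of all features, 0 were called (0.0% of all features) and 0 had an unadjusted p under 0.05, against 2.96% of all features. When one library was left out that median lay between 0.0125, without mutant p53 mdm2 wild-type replicate 2, and 0.12, without p53-null mdm2 wild-type replicate 3. Leaving out replicate 1 of the p53-null mdm2 wild-type group gave 0.0404, leaving out its replicate 2 gave 0.0377, and leaving out mutant p53 mdm2 wild-type replicate 3 gave 0.115. The genes shifted together by sample, so the counts of positive genes do not rest on separate observations. The median deviation of the 69 genes from their means was 0.025, 0.115 and -0.069 in mutant p53 mdm2 wild-type thymi. It was -0.111, -0.098 and 0.042 in p53-null mdm2 wild-type thymi, so these groups overlapped. The genes of smallest p were Ube2e2 (0.20), Ube2f (0.31), Ube2l3 (0.22), Psmb8 (0.19), Ube2z (0.18), Psmc1 (0.25), Psma3 (0.25), Psma7 (0.20), Psmd9 (0.15) and Ube2k (0.13). These 10 kept their sign when one library was left out, with log2 changes of 0.01 to 0.43 for Psma3, 0.05 to 0.42 for Psmc1, 0.09 to 0.34 for Psma7, 0.09 to 0.27 for Ube2e2, 0.12 to 0.29 for Ube2l3 and 0.14 to 0.44 for Ube2f. Samples did not overlap for 3 genes there, Psmb8, Ube2e2 and Ube2l3, all higher, against 3.68% of all features higher and 3.99% lower. With mdm2 null 43 were positive (median 0.0326), against 48.8% of all features, 0 were called (0.0% of all features) and 1, Ube2e2, had an unadjusted p under 0.05, against 3.87% of all features. There 5 genes were higher and 5 lower without overlap, against 12.9% and 14.8%. The genes of smallest p were Ube2e2 (0.35), Ube2z (-0.31), Ube2d2a (0.29), Ube2h (-0.23), Psmc3ip (0.24), Psmd11 (-0.14), Psme1 (-0.16), Psmb8 (0.19), Ube2n (0.19) and Psmb11 (0.24). When one library was left out, the members' median was -0.071 to 0.136. Psmb8 had -0.07 without p53-null mdm2-null replicate 1 and Psmb11 had -0.06 without mutant p53 mdm2-null replicate 2, while the other 8 kept their sign in all 10 such fits.

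**Figure D3:**
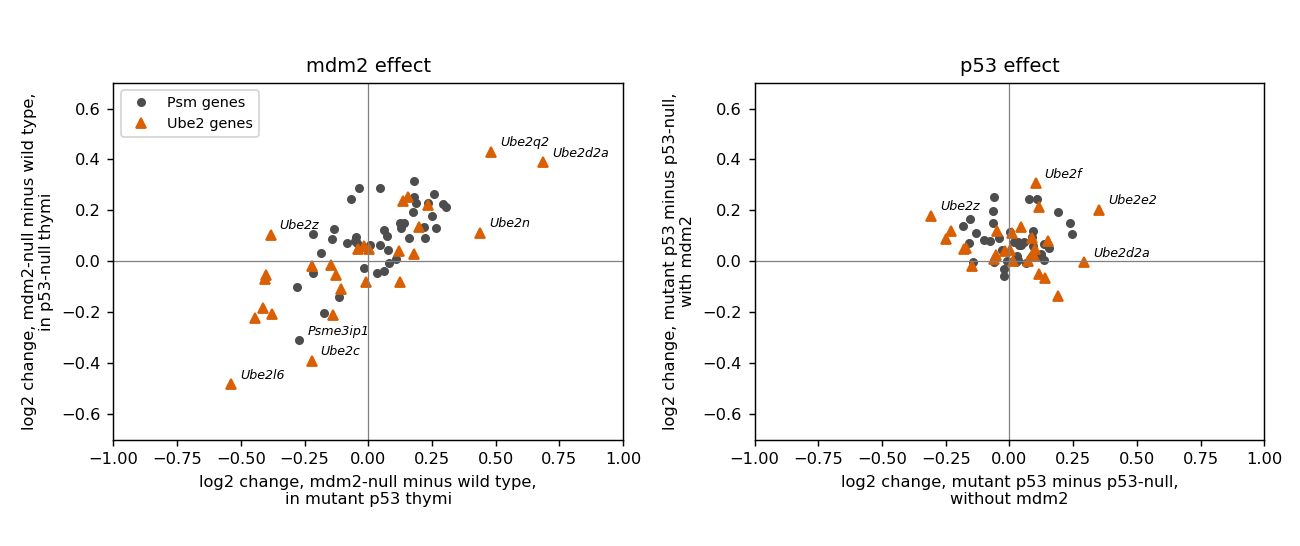
Left, log2 change mdm2-null minus wild type in mutant p53 thymi (horizontal) and in p53-null thymi (vertical). Right, log2 change mutant p53 minus p53-null without mdm2 (horizontal) and with it (vertical). Points are the 69 genes; Ube2d2a (0.69 and 0.39) and Ube2q2 (0.48 and 0.43) stand at the upper right of the left panel, and 58 of the 69 points of the right panel lie above 0 on its vertical axis.

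The core and cap subunits tended to be high or low in the same samples of a group. Of 26 such genes, 24 were highest in replicate 2 of the mutant p53 mdm2 wild-type group, against 34.0% of all features. In the p53-null mdm2-null group 23 of 26 were highest in replicate 2, against 49.7%, and in the p53-null mdm2 wild-type group 23 of 26 were highest in replicate 3, against 38.1%. In the mutant p53 mdm2-null group 17 of 26 were highest in replicate 1, against 49.8%. As a median deviation from each gene's mean, these subunits stood at 0.116 and 0.027 in mutant p53 mdm2-null thymi, -0.058 and 0.171 in p53-null mdm2-null thymi, -0.007, 0.136 and -0.115 in mutant p53 mdm2 wild-type thymi, and -0.15, -0.119 and 0.049 in p53-null mdm2 wild-type thymi. The mdm2-null and mdm2 wild-type samples overlapped in this measure, and so did the mutant p53 and p53-null samples. With each array centred on its median, replicate 3 of the p53-null mdm2 wild-type group was at -0.031, while the other positive samples kept their sign. These counts describe these samples, and their source was not tested.

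**Figure D4:**
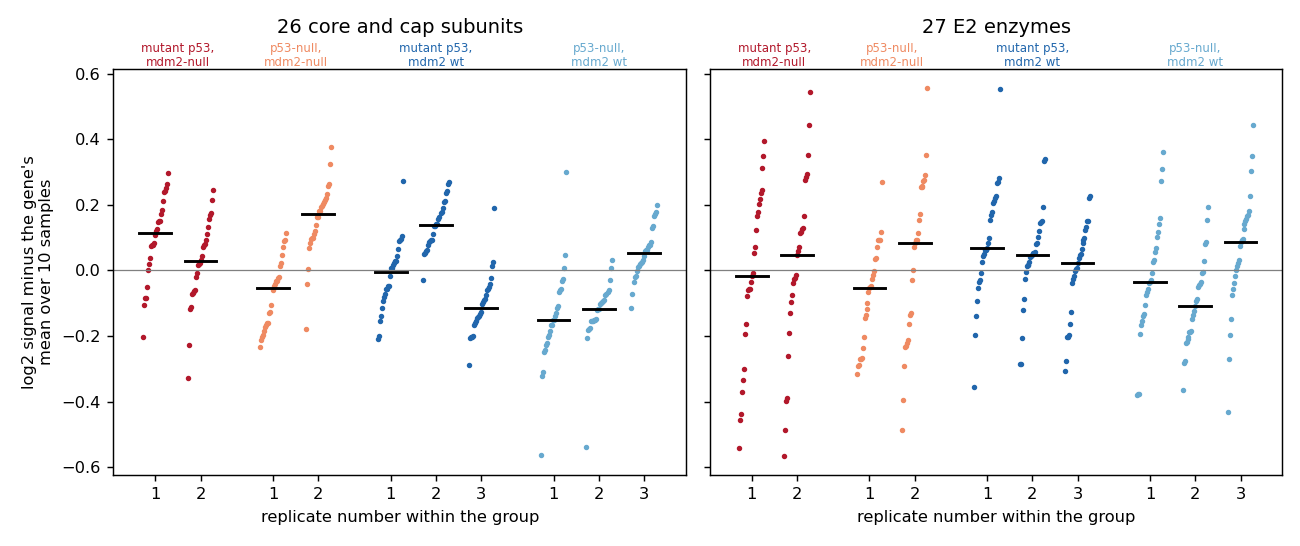
Log2 signal minus the gene's mean over 10 samples (vertical axis), for 26 core and cap subunits (left) and 27 E2 enzymes (right), by sample, with a point for each gene and a bar for the median. The core and cap medians run between -0.15 and 0.171 and differ between replicates of one group.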

How the data were processed

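The authors deposited processed log2 signals for 23332 features in 10 samples, for which the submitters' processing notes name Partek 6.5 and build mm8. Normalization and probe summary are not given in the sources used here. These values were analysed without further scaling. Genes were named from the platform annotation, and 7 features shared with another gene were left out. Limma 3.58.1 in R 4.3.3 (lmFit, eBayes) was fitted to all features, additive for effects over both genotypes and with 1 mean per group otherwise, with Benjamini-Hochberg adjustment per comparison. Tables were made with Python 3.11.15 and pandas 2.3.3.

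The members followed from the name rule, while the roles and the lists of other genes were chosen with earlier results of these data known. Named genes are those called, the members of smallest unadjusted p up to 10 per comparison, and members listed by role; members were not ranked by level, since features differ in scale. Simulated data had 200 of 23332 features raised and noise drawn separately for each feature, without the shared shifts between samples described above. In that setting the mdm2 effect over both p53 genotypes recovered 36.0% of features changed 1.5-fold and 80.0% of those changed 2-fold. The simple mdm2 comparisons recovered 0.0% at 1.5-fold. Recovery in the real data may differ. Alternatives were median centring, quantile normalization, a filter on dim features, a plain linear model, a replicate block, only the groups compared and leaving out each sample. The number of arrays limits precision. No 2 samples were identical.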

Additional observations from a re-analysis of the deposited data

How the results depend on the processing

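Both called genes stayed called with each array centred on its median, with quantile normalization and without the dimmer 50% of features, where Ube2l6 was called too. Their adjusted p was 0.0598 (Ube2d2a) and 0.0506 (Ube2q2) in a plain linear model and 0.126 and 0.0781 with a replicate block; for Nfe2l2 it was 0.0775 and 0.129. With a plain linear model 0 genes and 453 features were called for mdm2 over both p53 genotypes. Deviations of same-numbered samples from their group means had correlations of -0.189 to 0.191 over 13 pairs. In groups of 2 samples the deviations mirror each other, so the pairs are not separate, and differently numbered pairs were not compared. With a replicate block 0 genes and 61 features were called, and in mutant p53 thymi 5 features against 3. Other changed counts of features were 7 (quantile) and 143 (without dim features) for mdm2 in mutant p53 thymi, 13 against 5 (without dim features) for mdm2 in p53-null thymi, and 8 against 0 (only the groups compared) for p53 with mdm2 null. The cause of these changes was not tested.

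Leaving out one sample at a time, the mdm2 effect over both p53 genotypes called 0 to 2 genes and 114 to 776 features. Features called were 0 to 63 for mdm2 in mutant p53 thymi, 3 to 62 for mdm2 in p53-null thymi, 0 to 5 for p53 with mdm2 null, 0 to 1 for p53 with wild-type mdm2 and 0 to 2 for the difference of the mdm2 effects. The members' median ran between -0.012 and 0.181 for mdm2 in p53-null thymi, -0.071 and 0.136 for p53 with mdm2 null, and -0.132 and 0.0506 for the difference. No result changed direction while called. Averaging several features per gene was not run, since each gene had 1.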

Other observations

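Features shared between a gene of these families and another gene were not assigned. The feature of Ube2j2 and Gm5801 had 5.71 and 6.09 in mutant p53 mdm2-null thymi, 5.38 and 5.79 in p53-null mdm2-null thymi, 6.47, 6.31 and 6.45 in mutant p53 mdm2 wild-type thymi, and 6.15, 6.13 and 6.10 in p53-null mdm2 wild-type thymi. It was called lower without mdm2 by limma, as were 1.9% of all features, with a log2 change of -0.53 (SE 0.107, adjusted p = 0.0337). Fits under other settings are not given for this feature. The feature of Ube2v1 and Tmem189 had a log2 change of -0.31 (adjusted p = 0.0846). The 2 features of Psme2 and Psme2b, of which Psme2 partners Psme1 in an interferon-inducible activator, had -0.46 (adjusted p = 0.544) and -0.61 (adjusted p = 0.0846). The first value averages opposite directions. That feature had group means of 7.32 without mdm2 and 6.84 with it in mutant p53 thymi. In p53-null thymi its means were 5.94 without mdm2, from samples of 6.58 and 5.3, and 7.35 with it.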
